A study of Mus musculus with 15 samples.

Results

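The cytochrome P450 genes of the mouse cecum were compared between AIMD mice, whose gut microbiome was depleted with antibiotics, and vehicle-treated mice. The genes were taken by symbol: every gene of the deposited table whose symbol is Cyp followed by a digit and that had a value above 0 in at least 1 mouse, leaving out symbols that end in -ps and Cyp51, Cyp1a1 and Cyp1b1. Of 116 Cyp symbols in the table, 9 end in -ps, 3 are those left out by name, 34 were at 0 in every mouse, and 70 remained, among 24279 genes with a value above 0. Cyp4b1-ps2 is among the 70 because its symbol has a number after -ps. The value is the FPKM, the number of reads on a gene divided by its length and by a scaling factor of each mouse. That factor, recovered from the values, was not the number of reads on genes. It was 5162136 against 6486310 reads in Vehicle replicate 5 and 13139115 against 11244643 reads in AIMD replicate 6.

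All mice were wild-type (WT) C57BL/6 animals with a labelled age of 20 weeks, male by the study's methods, and every one was gavaged 2 times a day for 30 days. The 7 AIMD mice received ampicillin, vancomycin, neomycin, metronidazole and amphotericin B, and the 8 Vehicle mice received water. RNA came from the emptied cecum of each mouse, with no pooling of animals, and was read as polyA-selected RNA of the whole organ wall, so that fewer cells of a type and less RNA per cell cannot be told apart. The labels give neither the cage nor the time of sacrifice of a mouse.

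Cytochrome P450 enzymes are membrane-bound oxygenases that hold a heme group and insert an oxygen atom into fat-soluble molecules. The enzymes of the Cyp2 and Cyp3 families are best known for oxidizing drugs, plant compounds and steroids, those of the Cyp4 family and Cyp2j for oxidizing fatty acids and eicosanoids, and the others for single steps in bile acid, vitamin D, retinoic acid and steroid hormone metabolism. Most need electrons from P450 oxidoreductase, and many of their genes are switched on by nuclear receptors that sense foreign compounds or bile acids. The liver holds the most P450 enzyme, and the gut epithelium has a set of its own.

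Reads on genes, recovered from the FPKM, ranged from 8679683 to 18108596 in AIMD mice and from 4372424 to 14405950 in Vehicle mice. The 7 absorptive epithelium markers were measured in every mouse, with summed FPKM of 25387 to 35261 in AIMD mice and 23184 to 31473 in Vehicle mice. Of the 8 hepatocyte markers, 5 stayed under an FPKM of 0.5 in every mouse, and albumin (Alb) reached at most 0.261. The other 3 were measured: Ttr at 4.50 to 37.9 and Apoa2 at 1.70 to 8.87, neither passing the test, and Tat, higher in AIMD mice (log2 fold change 1.04, limma adjusted p = 0.000109). The ileal gene Fabp6 was at 100 or more in AIMD replicate 6 (225) and in Vehicle replicates 5, 7 and 8 (1041, 1062 and 1718), and at most 69.8 in the other 11 mice. The ileal and jejunal enzyme Sis, under 0.6 elsewhere, was between 2.33 and 4.62 in the same 4 mice. Of the 5 ileal markers 4 were tested, and Apob and Apoa4 were higher in AIMD mice (log2 fold change 1.78 and 1.66, limma adjusted p = 0.000173 and 0.0203). Vehicle replicate 8 also had the fewest reads and the highest summed FPKM of smooth muscle markers, 2201 against a Vehicle median of 787. Other cell type markers that passed the test were Vil1, Tff3, Csf1r, C1qa and Cd68 (higher in AIMD mice) and Aqp8, Muc2, Tagln and Adipoq (lower), with log2 fold changes from -1.44 to 1.14, and the part of cell makeup in the P450 values was not tested. Counts of P450 genes are given with and without these 4 mice.

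P450 genes changed in both directions in AIMD mice, and members of the same subfamily moved apart. Cyp2c55, the most abundant P450 gene of the cecum, had a mean FPKM of 2180 in AIMD mice and 6826 in Vehicle mice. Of 6 tested Cyp2d genes 5 rose and Cyp2d22 fell, Cyp4f14 rose and Cyp4f15 fell from a mean FPKM of 8.58 to 0.303, and Cyp3a13 rose where Cyp3a44 fell to 1 read in all AIMD mice together. Of the 70 genes, 28 reached an FPKM of 0.5 in 7 or more mice and were tested, as log2(FPKM + 0.5), with limma and Benjamini-Hochberg adjustment over all 11971 genes tested. In AIMD mice 12 were higher, 6 were lower and 10 did not pass an adjusted p of 0.05. Over all genes tested, 36% passed, 19.4% as higher and 16.6% as lower. An absolute log2 fold change of at least 1 together with the adjusted p was found for 12 of the 28, 7 higher and 5 lower, against 6.39% of all genes. The 7 AIMD mice and the 8 Vehicle mice did not overlap in 12 of the 28, with AIMD mice above in 8 and below in 4, against 8.57% of all genes (5.27% above and 3.3% below). The median log2 fold change of the 28 was 0.29, and that of all genes tested was 0.0066. Without the 4 mice with high Fabp6, the filter asked for an FPKM of 0.5 in 5 or more mice. In that fit 12 genes were higher and 7 lower, with Cyp3a44 under this filter and Cyp27a1 and Cyp39a1 added. The share of all genes in that fit is not given here.

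**Figure D1:**
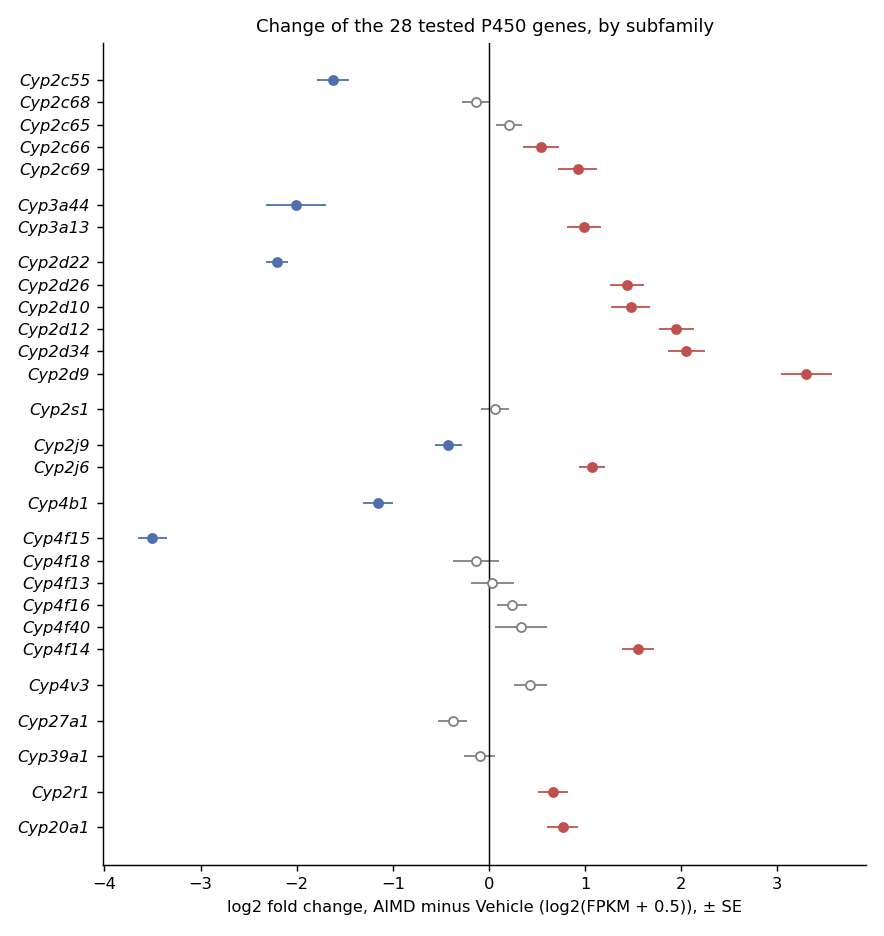
Log2 fold change (AIMD minus Vehicle, of log2(FPKM + 0.5), horizontal axis) of the 28 tested P450 genes, grouped by subfamily, with bars of 1 standard error. Filled points passed an adjusted p of 0.05 in limma (red higher, blue lower in AIMD mice) and open points did not. Values run from -3.50 for Cyp4f15 to 3.30 for Cyp2d9. The Cyp2c, Cyp2d, Cyp2j, Cyp3a and Cyp4f subfamilies each have filled points on both sides of 0. In Cyp2j, Cyp3a and Cyp4f the only lower filled point is a gene that reached the filter through Vehicle mice.

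Of the called genes, 5 reached the filter through the group in which they were high, while 4 or fewer mice of the other group reached an FPKM of 0.5. The numbers of AIMD and Vehicle mice at 0.5 or more were 0 and 7 for Cyp3a44, 1 and 8 for Cyp4f15, 7 and 1 for Cyp2d12, 3 and 8 for Cyp2j9 and 7 and 4 for Cyp2r1. Fold changes on the log2(FPKM + 0.5) scale understate the change of such low genes. These 5 genes are within the counts above, and counts without them are not given here. Cyp3a44, Cyp4f15 and Cyp2j9 are the only genes called lower in their subfamilies. The opposite directions within Cyp3a, Cyp4f and Cyp2j therefore rest on genes that passed the filter through Vehicle mice.

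Genes of the same subfamily that differed in the test have related coding sequences. P450 enzymes share a loop around the cysteine that binds the heme iron, and a coding pattern for this cysteine heme-iron ligand signature was found in frame in the longest reading frame of 63 of 68 P450 genes that have one in GENCODE M21 (GRCm38), and in 0.886% of 21103 protein-coding genes. The stretches below are shown because they let genes of a subfamily with unlike results be compared at the same place of the enzyme. This place lies 54 to 58 codons before the end of the reading frame. The capitals mark the codon of the cysteine.
Cyp2d22 (lower in AIMD mice): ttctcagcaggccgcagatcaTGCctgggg
Cyp2d26 (higher): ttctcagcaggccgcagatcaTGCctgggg
Cyp2d9 (higher): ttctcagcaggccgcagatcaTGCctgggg
Cyp2d10 (higher): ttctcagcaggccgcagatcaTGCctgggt
Cyp2d34 (higher): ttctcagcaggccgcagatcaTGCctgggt
Cyp2d12 (higher): ttttcagcaggccgcagatcaTGCctgggg
Cyp4f15 (lower): ttctccgctgggcccaggaacTGCatagga
Cyp4f14 (higher): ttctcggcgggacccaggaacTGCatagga
Cyp2c55 (lower): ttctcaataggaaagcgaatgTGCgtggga
Cyp2c65 (not passing the test): ttctcaacaggaaaacggattTGTgtggga
Cyp2d22, Cyp2d26 and Cyp2d9 held the same 30 bases, and so did Cyp2d10 and Cyp2d34. Over the whole reading frame Cyp2d22 was 77.4% to 78.4% identical to the other 5 tested Cyp2d genes, Cyp4f14 80.2% to Cyp4f15, and Cyp2c55 75.5% to Cyp2c65. Cyp3a13 and Cyp3a44 were 75.3% identical. Cyp4f14 was also 79.7% identical to Cyp4f40, which did not pass the test.

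The Cyp2c genes made up most of the P450 RNA, and their share of it was lower in AIMD mice. Cyp2c55 encodes an enzyme of the colon and cecum that oxidizes arachidonic acid. It lies on the plus strand of chromosome 19, from 39007019 to 39042693 in GRCm38. Its FPKM was 1918, 2185 and 2457 (lowest, median and highest) in AIMD mice and 4836, 6569 and 8958 in Vehicle mice. Every AIMD mouse was below every Vehicle mouse, with a mean of 2180 ± 232 (SD, n = 7) against 6826 ± 1617 (SD, n = 8). The fitted log2 change was -1.62 (standard error, SE, 0.17; limma adjusted p = 3.06e-06), and the two-sided exact permutation test over the mice gave p = 0.000155, the smallest p it can give. By mean FPKM, Cyp2c55 was number 9 of all 24279 genes in Vehicle mice and number 20 in AIMD mice. It took 0.943% to 1.59% of the reads on genes in Vehicle mice and 0.401% to 0.540% in AIMD mice.

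Cyp2c65, whose product also oxidizes arachidonic acid and is known from the gut, starts 18.3 kb after the end of Cyp2c55 on the same strand. Its FPKM was 413, 501 and 600.01 in AIMD mice and 335, 434 and 552 in Vehicle mice. The groups overlapped, and the log2 fold change of 0.21 (SE 0.14, limma adjusted p = 0.239) did not pass the test. It passed after quantile normalization (0.39, limma adjusted p = 0.0421). Within a mouse, the FPKM of Cyp2c55 was 12.0 to 17.9 times that of Cyp2c65 in Vehicle mice and 3.75 to 5.34 times in AIMD mice.

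The bases before the RefSeq start sites of these neighbours (GRCm38.p6, 120 bases of each, both on the plus strand of chromosome 19) are shown because the genes lie side by side and differed in the test. Both genes have TATAAA in the 250 bases before the start, and that of Cyp2c65 lies before the bases shown. The bases shown for Cyp2c65 also hold the similar run tatataag, which was not searched for or marked. The capitals mark TATAAA, the TATA box letters, in Cyp2c55 and CAAAGTCCA, a binding motif of the receptor Hnf4a, in Cyp2c65.
Cyp2c55, chr19:39006899-39007018: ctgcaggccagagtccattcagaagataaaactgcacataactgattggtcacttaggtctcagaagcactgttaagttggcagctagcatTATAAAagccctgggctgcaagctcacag
Cyp2c65, chr19:39060886-39061005: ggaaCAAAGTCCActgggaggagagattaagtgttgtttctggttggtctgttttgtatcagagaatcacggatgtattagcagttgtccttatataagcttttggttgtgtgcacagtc
Both strands of the 250 bases before each start were searched for these motifs, for AGGTCA, the half-site of many nuclear receptors, and for GCGTG, the core of the Ahr motif. None of the 4 motifs contains another. CAAAGTCCA was found for 3 of the 24 tested P450 genes with a RefSeq start (Cyp2c65, Cyp2c68 and Cyp2c69) and for 0.384% of 32851 start sites, TATAAA for 7 (Cyp2c55, Cyp2c65, Cyp2c66, Cyp2d9, Cyp2d10, Cyp2d26 and Cyp3a44) and 12.4%, AGGTCA for 1 (Cyp3a44) and 14%, and GCGTG for 6 and 28.2%. A match is only a run of letters, and binding was not measured.

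Of the other tested Cyp2c genes, Cyp2c66 and Cyp2c69 were higher in AIMD mice, and Cyp2c68 did not pass the test, with log2 fold changes of 0.54, 0.92 and -0.13 and limma adjusted p of 0.0310, 0.00209 and 0.492. Their FPKM was between 0.646 and 9.46 over all mice. These values are uncertain because of shared sequence: of the 50-base windows of Cyp2c68 and Cyp2c69, 43.3% and 54.3% also occur in other genes, and of those of Cyp2c66, 19.5% occur in Cyp2c65, which had far more reads. The call for Cyp2c66 was lost with the exact rank-sum test, with no filter, within either group of mice set by clock genes (described further on), and without AIMD replicate 1, 4 or 7 or Vehicle replicate 1, 6 or 7 (log2 fold change 0.46 to 0.52, limma adjusted p 0.0506 to 0.0589). That for Cyp2c69 was lost within the mice with high Arntl alone (0.73, limma adjusted p = 0.0649).

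**Figure D2:**
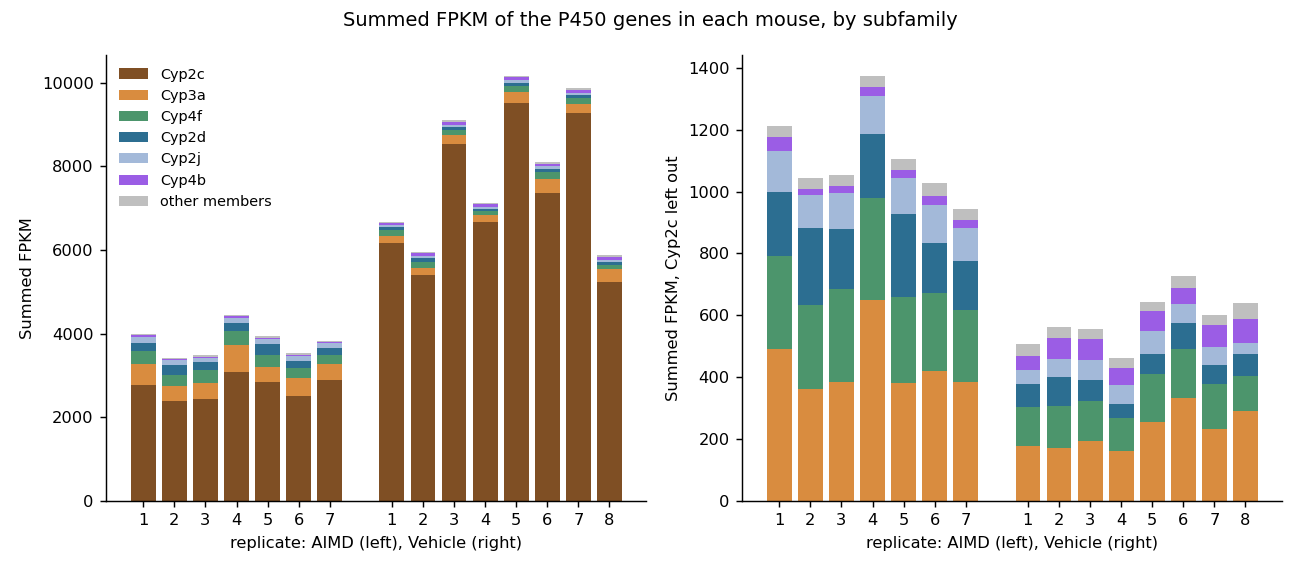
Summed FPKM of the P450 genes in each mouse (bars, 1 per replicate), stacked by subfamily, for all 70 genes (left) and without the Cyp2c genes (right), with axes from 0. The Cyp2c genes took 69.1% to 75.3% of the sum in AIMD mice and 89.1% to 93.9% in Vehicle mice, and the Cyp3a, Cyp4f, Cyp2d and Cyp2j sums of every AIMD mouse were above those of every Vehicle mouse.

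Summed over all 70 genes, the FPKM was 3423, 3825 and 4447 in AIMD mice and 5887, 7615 and 10168 in Vehicle mice. Without Cyp2c55 the order turned, with sums of 1429, 1564 and 1991 in AIMD mice and 852, 1035 and 1210 in Vehicle mice. These sums are a description with no test. The plot by subfamily shows that the Cyp3a sum (median 386 in AIMD mice and 213 in Vehicle mice), the Cyp4f sum (280 and 133), the Cyp2d sum (205 and 69.3) and the Cyp2j sum (117 and 59.4) were all higher in AIMD mice, and the Cyp4b sum (25.6 and 65.7) was lower.

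The Cyp3a genes that changed moved apart. Cyp3a13, the main Cyp3a gene of the mouse intestine, oxidizes drugs and steroids. Its position is chromosome 5, 137892932 to 137921619, minus strand. Its FPKM was 361, 386 and 650 in AIMD mice and 159, 211 and 331 in Vehicle mice. All AIMD mice were above all Vehicle mice, and the fitted log2 change was 0.99 (SE 0.18, limma adjusted p = 0.000480, exact permutation p = 0.000311).

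Cyp3a44, known as a female-predominant gene of the mouse liver, lies 7852 kb away on the same chromosome. Its FPKM was 0 in 6 AIMD mice and 0.0388, from 1 read, in AIMD replicate 6, and it was 0.485, 1.54 and 5.04 in Vehicle mice. Every Vehicle mouse had between 7 and 70 reads. In total 1 read was found in AIMD mice and 228 in Vehicle mice. The rate per unit of the summed scaling factors was 334 times as high in Vehicle mice. Its exact 95% interval of 59.3 to 13244 covers counting error only. The fitted log2 fold change of -2.01 (limma adjusted p = 0.000153) depends on the pseudocount and is no bound. With any of Vehicle replicates 2 to 8 left out, or without the 4 mice with high Fabp6, the gene was not tested. Of its 50-base windows 26.5% also occur in other Cyp3a genes.

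Cyp3a25, which lay under the filter, had the same order. It had 5 reads in all AIMD mice and 139 in all Vehicle mice, 3 to 42 in each Vehicle mouse. The rate per unit of the summed scaling factors was 40.7 times as high in Vehicle mice (exact 95% interval 17.0 to 127, counting error only). Every AIMD mouse was below every Vehicle mouse, and with no filter it passed the test (limma adjusted p = 0.0111). Of the 3 Vehicle mice with high Fabp6, replicates 8 and 5 had its highest FPKM (4.61 and 2.42) and replicate 7 had 0.806. The other 5 Vehicle mice were between 0.155 and 1.42. Of its 50-base windows 26.8% also occur in other genes, for the most part in Cyp3a59. The part of ileal tissue in these values was not tested. The plot of both genes against Fabp6 shows that the Vehicle mice with Fabp6 under 100 were also above every AIMD mouse for both genes.

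**Figure D3:**
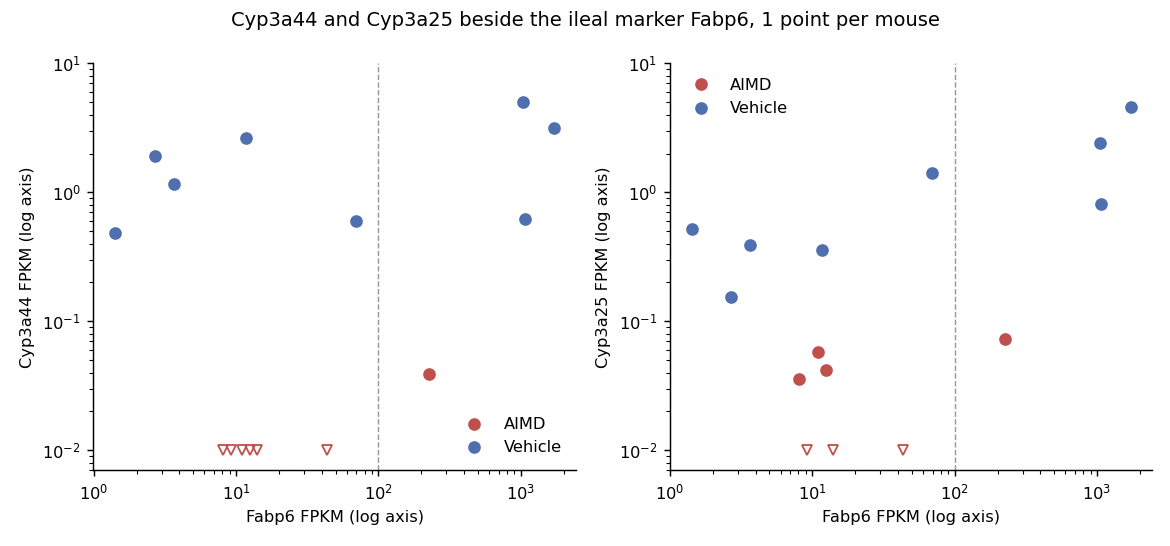
FPKM of Cyp3a44 (left) and Cyp3a25 (right) against the FPKM of the ileal gene Fabp6, 1 point per mouse, both axes logarithmic, with a dashed line at a Fabp6 FPKM of 100. Open triangles at the bottom are mice with an FPKM of 0; the 5 Vehicle mice left of the line lie above all 7 AIMD mice in both panels, and the AIMD mouse right of the line (replicate 6) has 0.0388 and 0.0731.

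The Cyp2d genes form a cluster on chromosome 15, and 5 of the 6 tested rose in AIMD mice. Enzymes of this subfamily oxidize many drugs, and Cyp2d9 is known from male mouse liver as a testosterone hydroxylase. Cyp2d9 (plus strand, 82433437 to 82456845) had an FPKM of 10.3, 12.3 and 26.5 in AIMD mice and 0.409, 0.873 and 3.23 in Vehicle mice. The groups did not overlap, and the log2 fold change of 3.30 (SE 0.26, limma adjusted p = 2.39e-07) was the highest of the 28. AIMD replicate 4 and Vehicle replicate 2 were each well above the rest of their group.

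Cyp2d26 was the most abundant of the subfamily, with an FPKM of 81.0, 102 and 158 in AIMD mice and 25.3, 38.1 and 52.2 in Vehicle mice (log2 fold change 1.43, standard error 0.18, limma adjusted p = 1.71e-05). Cyp2d34 had 50.1, 74.9 and 92.7 in AIMD mice and 9.64, 16.4 and 27.8 in Vehicle mice (2.05, standard error 0.19, limma adjusted p = 9.18e-07). Neither gene had an AIMD mouse within the range of the Vehicle mice. Cyp2d10 (1.47, limma adjusted p = 4.57e-05) and Cyp2d12 (1.95, limma adjusted p = 8.75e-07) were also higher without overlap, at FPKM of 4.48 to 7.24 and 1.65 to 4.32 in AIMD mice and 0.764 to 3.10 and 0.0836 to 0.57 in Vehicle mice. Cyp2d12 rested on 1 to 11 reads in each Vehicle mouse, the smallest whole numbers that fit its values.

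Cyp2d22, often held to be the closest mouse counterpart of the human drug enzyme gene CYP2D6, moved the other way. It lies at the edge of the cluster (minus strand, 82370527 to 82380260), 22.6 kb before Cyp2d10, the nearest tested gene. Its FPKM was 1.38, 2.01 and 2.26 in AIMD mice and 8.18, 10.4 and 13.2 in Vehicle mice. Every AIMD mouse was below every Vehicle mouse, by a log2 change of -2.20 (SE 0.12, limma adjusted p = 1.91e-09, exact permutation p = 0.000155). Within a mouse the FPKM of Cyp2d26 was 38.2 to 94.9 times that of Cyp2d22 in AIMD mice and 2.37 to 5.03 times in Vehicle mice.

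Reads of the Cyp2d genes can be split between close copies. Of the 50-base windows, 35.8% occur in other genes for Cyp2d10, 21.8% for Cyp2d9, 9.49% for Cyp2d26, 7.61% for Cyp2d12, 7.55% for Cyp2d34 and 4.13% for Cyp2d22. Exons of Cyp2d9 also overlap the predicted genes Gm27622 and Gm46501, and those of Cyp2d10 and Cyp2d12 overlap Gm27331 and Gm27924. The likeness extends to the bases before the start sites of Cyp2d9 and Cyp2d10, which were 82.3% identical over 250 bases, while Cyp2d9 and Cyp2d26 were 50.5% identical. The last 120 of these bases in RefSeq (GRCm38.p6) are shown because both genes rose, with TATAAA, on the other strand, in capitals as TTTATA. The RefSeq start of Cyp2d9 lies within the longer span that GENCODE M21 gives the gene.
Cyp2d9, chr15:82452257-82452376, plus strand: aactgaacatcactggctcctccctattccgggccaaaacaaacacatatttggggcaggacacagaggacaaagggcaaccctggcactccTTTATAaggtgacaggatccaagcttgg
Cyp2d10, chr15:82407195-82407314, minus strand: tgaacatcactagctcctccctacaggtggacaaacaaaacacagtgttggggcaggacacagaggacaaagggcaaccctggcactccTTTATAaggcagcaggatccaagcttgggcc

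**Figure D4:**
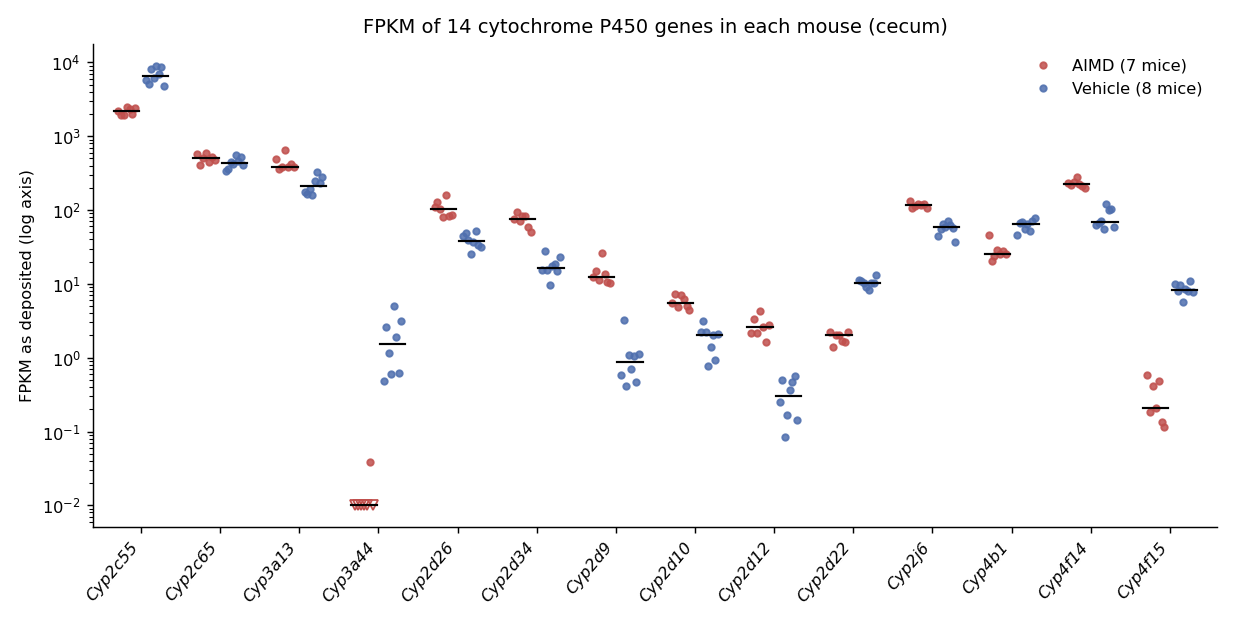
FPKM (log axis) of 14 P450 genes in each mouse, AIMD in red and Vehicle in blue, with a black line at the median of each group. Open triangles mark 6 AIMD mice with 0 FPKM of Cyp3a44; the groups are apart for every gene shown except Cyp2c65 and, by 1 AIMD mouse at 46.2 against a lowest Vehicle mouse at 46.1, Cyp4b1.

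Among the genes of fatty acid and eicosanoid oxidation, the Cyp4f genes Cyp4f14 and Cyp4f15 gave the widest contrast. Enzymes of this subfamily oxidize leukotrienes and other fatty acids at the end of the chain. Cyp4f14 (chromosome 17, minus strand, 32905070 to 32917342) had an FPKM of 199, 228 and 280 in AIMD mice and 55.6, 69.9 and 121 in Vehicle mice. All AIMD mice were higher, by a log2 change of 1.55 (SE 0.17, limma adjusted p = 4.91e-06).

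Cyp4f15 (plus strand, 32685627 to 32703352) lies 201.7 kb before Cyp4f14. Its FPKM was 0.114, 0.210 and 0.577 in AIMD mice and 5.67, 8.27 and 11.04 in Vehicle mice. The highest AIMD mouse was far below the lowest Vehicle mouse, and the mean was 28.3 times as high in Vehicle mice. The fitted log2 change was -3.50 (SE 0.15, limma adjusted p = 2.51e-10, exact permutation p = 0.000155), the lowest of the 28. Each AIMD mouse had 3 to 23 reads of the gene and each Vehicle mouse 78 to 246. The FPKM of Cyp4f14 was 6.19 to 14.1 times that of Cyp4f15 in Vehicle mice and 400 to 1742 times in AIMD mice. Of the 50-base windows of these genes 2.39% and 2.28% occur elsewhere.

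The other 4 tested Cyp4f genes did not pass the test. Cyp4f40, 8.7 kb before Cyp4f15, had an FPKM of 11.5, 22.7 and 31.3 in AIMD mice and 8.34, 18.3 and 29.2 in Vehicle mice (log2 fold change 0.33, limma adjusted p = 0.348). Cyp4f16 had 15.3, 22.0 and 26.8 in AIMD mice and 12.4, 17.8 and 24.6 in Vehicle mice (0.24, limma adjusted p = 0.235). Cyp4f13, 7.3 kb from Cyp4f14, and Cyp4f18, known from neutrophils and lying on chromosome 8, had log2 fold changes of 0.03 and -0.14 (limma adjusted p = 0.918 and 0.685).

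Cyp4b1, a fatty acid hydroxylase that also activates some plant toxins, was lower in AIMD mice. Its FPKM was 20.5, 25.6 and 46.2 in AIMD mice and 46.1, 65.7 and 77.1 in Vehicle mice. AIMD replicate 1 was just above the lowest Vehicle mouse and the other 6 AIMD mice were below all Vehicle mice (log2 fold change -1.16, standard error 0.16, limma adjusted p = 4.57e-05, exact permutation p = 0.000311).

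Cyp2j6, an epoxygenase of arachidonic acid known from the gut, had an FPKM of 107, 117 and 132 in AIMD mice and 36.7, 58.4 and 72.1 in Vehicle mice. The groups did not overlap, and the fitted log2 change was 1.07 (SE 0.13, limma adjusted p = 2.04e-05). Its neighbour Cyp2j9, 14.8 kb away on chromosome 4, was lower at an FPKM of 0.313 to 0.844 against 0.548 to 1.19 (-0.42, limma adjusted p = 0.0243). That call was lost with the exact rank-sum test, within either group of mice set by clock genes, and without AIMD replicate 5 (-0.37, limma adjusted p = 0.0575).

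Genes of bile acid synthesis were low in the cecum. Cyp7a1, the rate-limiting enzyme of the classic pathway, was listed at 0 in every mouse, and Cyp8b1, Cyp7b1 and Cyp46a1 were under the filter. Cyp27a1, the mitochondrial sterol hydroxylase of the alternative pathway, had an FPKM of 2.36, 3.12 and 4.14 in AIMD mice and 2.85, 4.66 and 6.20 in Vehicle mice. It did not pass the test (log2 fold change -0.38, standard error 0.15, limma adjusted p = 0.0567). It passed without the 4 mice with high Fabp6 (-0.51, limma adjusted p = 0.0109), without any of AIMD replicates 2 and 6 and Vehicle replicates 5 and 7 alone (-0.46 to -0.42, limma adjusted p 0.0178 to 0.0488), and with upper-quartile scaling, quantile normalization or the clock-gene axis. Cyp39a1, an oxysterol hydroxylase, had 4.88, 5.75 and 6.78 in AIMD mice and 3.82, 6.41 and 9.09 in Vehicle mice (-0.10, limma adjusted p = 0.670). Without the 4 mice with high Fabp6 it was lower in AIMD mice (-0.41, limma adjusted p = 0.0196).

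Of the vitamin D genes, Cyp2r1, a hydroxylase of the first activation step, was higher in AIMD mice. Its FPKM was 0.646, 1.05 and 1.49 in AIMD mice and 0.187, 0.512 and 0.713 in Vehicle mice, on 9 to 35 and 2 to 11 reads a mouse (log2 fold change 0.67, standard error 0.15, limma adjusted p = 0.00310). The size was alike but the call was lost within the mice of low and of high Arntl alone (0.67 and 0.65, limma adjusted p = 0.0682 and 0.0534). Cyp24a1, which inactivates vitamin D, had 0 reads in AIMD mice and 13 in Vehicle mice, found in 5 of 8, and was under the filter. Of the Vehicle mice with high Fabp6, replicates 8, 5 and 7 had 7, 2 and 1 of these reads. Replicates 1 and 3 had 2 and 1. The part of ileal tissue was not tested. Cyp27b1, which makes the active hormone, had 4 and 5 reads.

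The retinoic acid genes Cyp26a1 and Cyp26b1, which break the hormone down, and the steroid hormone genes Cyp11a1 and Cyp17a1 were under the filter. Cyp26c1, Cyp11b1, Cyp11b2, Cyp19a1 and Cyp21a1 were listed at 0 in every mouse. Cyp26b1 had 72 reads in all AIMD mice and 99 in all Vehicle mice, and no other gene of these groups had more than 3 reads in either group.

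The remaining tested genes are Cyp20a1, Cyp4v3 and Cyp2s1. Cyp20a1, an enzyme with no settled substrate, was higher in AIMD mice with overlap (log2 fold change 0.77, limma adjusted p = 0.00158), a call lost within the mice of low Arntl alone (0.66, limma adjusted p = 0.0800). Cyp4v3, a fatty acid hydroxylase, was close to the threshold (0.43, limma adjusted p = 0.0569). It passed without AIMD replicate 2 or 5 or Vehicle replicate 8 (0.49 to 0.53, limma adjusted p 0.0185 to 0.0314) and with limma voom on the recovered reads (0.52, limma adjusted p = 0.0465). Cyp4v3 also passed with the clock-gene axis (0.43, limma adjusted p = 0.0305) or the clock-gene cluster (0.41, limma adjusted p = 0.0428) in the model. Cyp2s1, an enzyme of epithelia outside the liver, had an FPKM of 14.4 to 20.5 in AIMD mice and 12.5 to 26.8 in Vehicle mice (0.06, limma adjusted p = 0.755).

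The other 42 genes lay under the filter. With no filter 3 of them passed in limma: Cyp3a25 (above), Cyp4f39 (log2 fold change 0.13, adjusted p = 0.0134; 9 reads in AIMD and 1 in Vehicle mice) and Cyp2w1 (0.13, adjusted p = 0.0486; 7 and 0 reads). The most abundant were Cyp2e1, the ethanol-oxidizing enzyme, with 88 reads in AIMD and 102 in Vehicle mice, Cyp3a25, the oxysterol hydroxylase Cyp7b1 (77 and 98), the fatty acid hydroxylase Cyp2u1 (90 and 95) and Cyp26b1. Cyp2e1 had its highest FPKM, 4.50, in Vehicle replicate 8, and 1.59 or less in all other mice. Of the abundant liver genes Cyp2c29, Cyp3a11 and Cyp2c70, none was above an FPKM of 0.35 in any mouse, and Cyp1a2, Cyp2b9, Cyp2c37, Cyp2c50 and Cyp2c54 were listed at 0 in all.

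The study sacrificed mice at different times, which the labels do not give, so the genes were also compared between mice by clock genes. Within each treatment, the first principal component of 12 clock genes split the mice into a cluster with high Arntl (AIMD replicates 1 to 3 and Vehicle replicates 1 to 4) and a cluster with low Arntl (AIMD replicates 4 to 7 and Vehicle replicates 5 to 8). Of all genes 16.4% differed between the clusters in limma with treatment in the model, and of the 28 P450 genes 1 did. Cyp4f40 was higher in the mice of high Arntl (log2 difference 0.87, limma adjusted p = 0.00782), with FPKM of 22.9 to 31.3 against 11.5 to 22.7 in AIMD mice and 20.3 to 29.2 against 8.34 to 16.3 in Vehicle mice. Of the 4 Vehicle mice of low Arntl, 3 are mice with high Fabp6, and the part of ileal tissue was not tested. Within the cluster of high Arntl alone, and likewise within that of low Arntl alone, 9 P450 genes were higher and 5 lower in AIMD mice. All of them were among the 18 that passed in all mice. The share of all genes that passed in these smaller fits is not given here. The counts therefore do not compare P450 genes with other genes.

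Genes whose products work with P450 enzymes were read from the same fit, in which 36% of all genes passed (19.4% as higher and 16.6% as lower). Of 9 electron donors, 4 were lower (Por, Fdxr, Pgrmc1 and Fdx1) and 1 was higher in AIMD mice. P450 oxidoreductase (Por), which passes electrons to all P450 enzymes of the endoplasmic reticulum, had an FPKM of 8.67, 10.8 and 15.99 in AIMD mice and 17.5, 35.8 and 49.0 in Vehicle mice. All AIMD mice were below all Vehicle mice (log2 fold change -1.55, standard error 0.18, limma adjusted p = 1.13e-05). Fdxr, the ferredoxin reductase of mitochondrial P450 enzymes, was also lower without overlap (-1.07, limma adjusted p = 0.000201), at 1.11 to 2.10 against 2.76 to 6.55. Cyb5b, a cytochrome b5 of the outer mitochondrial membrane, was higher without overlap (0.56, limma adjusted p = 0.00107), a call lost within the mice of high Arntl alone (0.41, limma adjusted p = 0.102). Pgrmc1, a heme-binding partner of P450 enzymes, was at -0.71 (limma adjusted p = 0.00211), a call lost within the mice of high Arntl alone (-0.55, limma adjusted p = 0.0782). The call for the ferredoxin Fdx1 (-0.62, limma adjusted p = 0.0376) was lost with the exact rank-sum test, with no filter, within either cluster, and without AIMD replicate 1, 2, 5, 6 or 7 or Vehicle replicate 1, 3, 5 or 7 (-0.63 to -0.54, limma adjusted p 0.0548 to 0.0802).

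Of 8 genes of heme synthesis 1 passed the test. Alad, which joins the first intermediate into a ring, had an FPKM of 5.49 to 10.5 in AIMD mice and 10.9 to 25.2 in Vehicle mice, with no overlap (-1.05, limma adjusted p = 0.000859). Alas1, the rate-limiting step, had 33.6 to 54.4 and 30.5 to 65.0 (0.13, limma adjusted p = 0.537), and the next lowest adjusted p were those of Ppox (-0.36, limma adjusted p = 0.116) and Uros (-0.35, limma adjusted p = 0.144). Of 4 genes of heme breakdown, the biliverdin reductases moved apart, with Blvra at a log2 fold change of 0.80 (limma adjusted p = 0.000217) and Blvrb at -1.23 (limma adjusted p = 0.000500), and the heme oxygenase gene Hmox1 was at -0.26 (limma adjusted p = 0.397).

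Of 19 tested receptors and factors that control P450 genes, 7 were higher in AIMD mice and 0 lower. Over all genes tested 36% passed, 19.4% as higher and 16.6% as lower. The number called is near that 36% and is not read as a result about the receptors. Hnf4a, a nuclear receptor that many liver and gut P450 genes need, had an FPKM of 118, 127 and 188 in AIMD mice and 43.9, 58.0 and 85.9 in Vehicle mice. The groups did not overlap (log2 fold change 1.25, standard error 0.17, limma adjusted p = 4.64e-05). Its relative Hnf4g was at 1.00 to 2.32 against 0.245 to 0.884 (1.14, limma adjusted p = 0.000286), and the common partner receptor Rxra at 10.3 to 18.3 against 4.81 to 11.3 (0.80, limma adjusted p = 0.00202; 0.74 and 0.0565 within the mice of high Arntl alone). The sensors of foreign compounds Nr1i3 (CAR) and Nr1i2 (PXR) overlapped between the groups, with log2 fold changes of 0.65 and 0.31 (limma adjusted p = 0.0161 and 0.0396). The call for Nr1i3 was lost within the mice of low Arntl alone (0.48, limma adjusted p = 0.240). That for Nr1i2 was lost within either cluster, and without AIMD replicate 1, 2, 3, 5 or 6 or Vehicle replicate 1, 3, 4, 6 or 7 (0.27 to 0.33, limma adjusted p 0.0571 to 0.0909). It was also lost with upper-quartile scaling (0.28, limma adjusted p = 0.0505) and without the 4 mice with high Fabp6 (0.33, limma adjusted p = 0.0865).

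Of 10 tested enzymes that share substrates or products with P450 enzymes, 3 were lower and 1 higher, also near the 36% of all genes. Fmo5, a flavin monooxygenase, was lower without overlap (-0.85, limma adjusted p = 0.000615), at 23.8 to 48.1 against 51.5 to 88.5. Aldh1a1, which makes retinoic acid, was higher (0.79, limma adjusted p = 0.00348) and Hsd3b7, an enzyme of bile acid synthesis, was lower (-0.43, limma adjusted p = 0.00747). The call for Aldh1a1 was lost within the mice of low Arntl alone (0.43, limma adjusted p = 0.171) and that for Hsd3b7 within either cluster. The medians of the lists of electron donors, heme synthesis, heme breakdown, receptors and other enzymes were -0.25, -0.31, -0.17, 0.16 and -0.28, against 0.0066 for all genes tested.

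**Figure D5:**
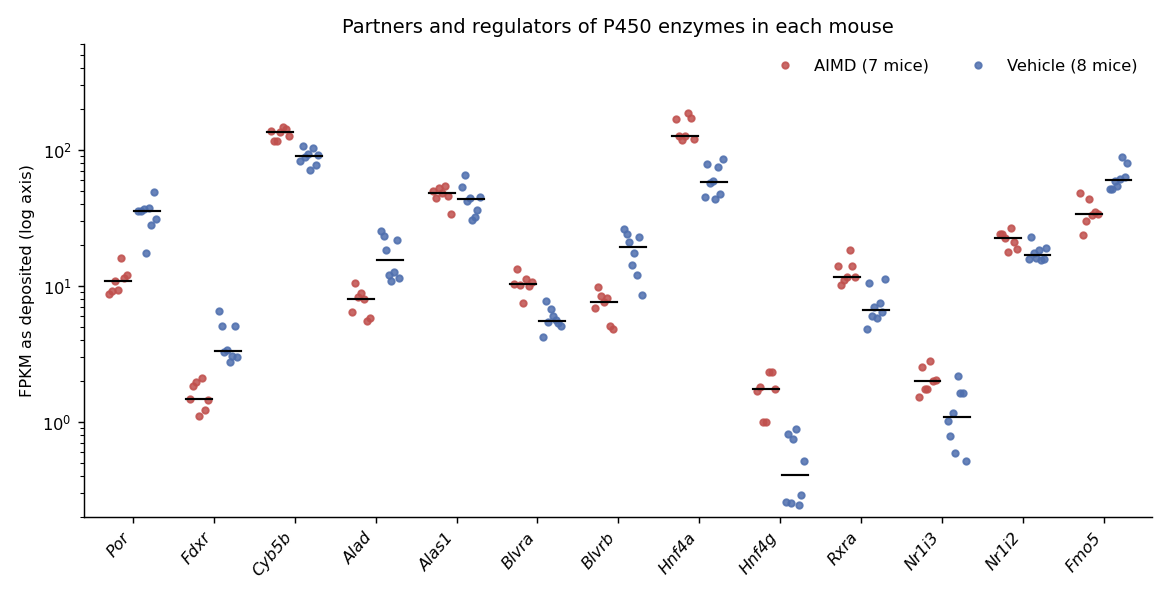
FPKM (log axis) of 13 genes that work with or control P450 enzymes in each mouse, AIMD in red and Vehicle in blue, with a black line at the median of each group. Por, Fdxr, Alad and Fmo5 lie lower in all AIMD mice, Hnf4a, Hnf4g and Cyb5b lie higher in all AIMD mice, and the groups overlap for the other genes.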

How the data were processed

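Per the labels and methods, polyA-selected cecal RNA of 7 AIMD and 8 Vehicle mice was sequenced, and the authors used STAR (mapping to GRCm38), featureCounts (gene counts on GENCODE genes) and DESeq2 (their tests). The deposited values are FPKM. Versions, the annotation release and the step to FPKM are not given in the sources used here. Of 45808 rows, 4 with repeated symbols were left out. Whole reads were recovered (tolerance 0.05 read) with the GENCODE M21 length for 68.7% of 24279 genes and with another length for 31.3%, whose reads are the smallest possible numbers. Of the P450 genes with reads given above, Cyp2d12, Cyp2r1, Cyp2e1, Cyp26a1, Cyp26b1, Cyp17a1 and Cyp4f39 are among the latter.

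FPKM were divided by size factors, taken as log2(FPKM + 0.5), kept where 7 or more mice reached an FPKM of 0.5, and tested with limma 3.58.1 (R 4.3.3; lmFit, eBayes with trend), AIMD against Vehicle, with Benjamini-Hochberg adjustment over 11971 genes and a threshold of 0.05. Printed FPKM are as deposited. Exact permutation tests were two-sided over all 6435 splits of the mice. The code was tested on simulated data. Adjusted p-values judge the difference between the groups against the spread between mice. The study housed several mice per cage, and the cage of each mouse was not given. All tests treated the mice as independent, so a part of cage in the differences cannot be told apart.

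Values are given for tested genes with an absolute log2 fold change of at least 1, the 10 most abundant, those with roles in bile acid, vitamin D, retinoic acid and steroid metabolism, and the 5 most abundant untested genes, and, of each list of partner genes with any call, the 3 with the lowest adjusted p, with Por, Nr1i2, Nr1i3 and Alas1 in any case. Other genes were named after their values were seen. The members and lists were chosen with earlier results of these data known. Mice were also split by k-means on clock genes within each treatment. Alternatives were other scalings, pseudocounts of 0.1 and 1, other filters, an exact rank-sum test, limma voom on recovered reads, clock and replicate terms, and leaving out single mice.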

Additional observations from a re-analysis of the deposited data

Results flagged for a closer look

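Among 48 groups of named P450 genes (1 gene in 1 treatment), 5 held a mouse far from the rest by Dixon's test, 10.4%. The limits of this test give about 1 in 20 by chance only for normally distributed values. FPKM were not transformed for it, so 10.4% cannot be set against that rate. Cyp2d9 stood at an FPKM of 26.5 in AIMD replicate 4, with the next AIMD mouse at 14.8. Cyp2d9 stood at 3.23 in Vehicle replicate 2, with the next Vehicle mouse at 1.11. Cyp2e1 stood at 4.50 in Vehicle replicate 8, a mouse with high Fabp6, with the next at 1.59. Cyp3a44 stood at 0.0388, or 1 read, in AIMD replicate 6, also a mouse with high Fabp6. All other AIMD mice were at 0, so that any single read would be flagged. Cyp4b1 stood at 46.2 in AIMD replicate 1, with the next AIMD mouse at 28.5.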

How the results depend on the processing

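No P450 gene that passed the test turned its direction in any alternative run. With an absolute log2 fold change of at least 1 required, the number of higher P450 genes went from 12 to 7. With 1 mouse left out, 11 to 13 P450 genes were higher and 5 to 7 lower, and 9 to 11 partner genes were higher and 8 to 11 lower, against 10 and 9 in all mice. Within the mice of high Arntl alone 5 partner genes were higher and 5 lower, with fewer mice. Shares of all genes that passed in the alternative runs are not given here. The counts of these runs only describe the P450 and partner genes. Between clock clusters 2 P450 genes were higher with no filter, and with 1 mouse left out 1 to 2 were higher and 0 to 2 lower. The count of 2 higher came without AIMD replicate 5 or 6 or Vehicle replicate 6 or 8, and lower calls came without AIMD replicate 1 (1 gene) or 5 (2 genes). Over mice left out, the AIMD minus Vehicle difference in summed FPKM was -4865 to -4254 for Cyp2c, 125 to 143 for Cyp2d, 57.8 to 63.0 for Cyp2j, 178 to 228 for Cyp3a, -37.4 to -32.3 for Cyp4b and 138 to 155 for Cyp4f. For genes that did not pass, signs were compared only where the rule for giving values had chosen the gene. Among these, the sign turned for Alas1 (-0.049) within the mice of high Arntl. For Cyp39a1 (0.25) and Cyp4f16 (-0.013) the sign turned within the mice of low Arntl. That of Cyp4f40 turned (-0.075) without the 4 mice with high Fabp6. The cause was not tested. The alternatives without those 4 mice, with voom at 10 reads or more, and with sums divided by size factors were chosen after seeing the data.

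The labels name no pairing by replicate number. Deviations of same-numbered mice correlated from -0.35 to 0.43, and 1 of 7 AIMD mice correlated best with its own number. With so few mice these correlations cannot tell whether the numbers pair them. In both treatments the low numbers fell in the cluster of high Arntl and the high numbers in that of low Arntl. A block by number therefore also takes up part of the clock split. With replicate number as a block, 12 P450 genes were higher and 7 lower, and 10 and 12 partner genes. The block lost the call for Cyp2c66 (0.43, limma adjusted p = 0.0550) and gained Cyp4v3 (0.49, limma adjusted p = 0.0298) and Cyp27a1 (-0.31, limma adjusted p = 0.0492). Vehicle replicate 8 has no AIMD mouse of its number. The fewest reads on genes in a mouse were 4372424.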
